A study of Mus musculus with 16 samples.

Results

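The hyaluronan receptors and hyaladherins (hyaluronan-binding proteins) examined here are 10 genes of the 55414 in the count table: Cd44, Layn, Stab1, Lyve1, Vcan, Tnfaip6, Ptx3, Itih5, Hapln1 and Habp4. They were taken by name, from a list chosen with earlier results of these data known. RNA was sequenced from cultured mouse cardiac fibroblasts at passage 2, kept without serum for 24 h and then infected with an adenovirus for Cre recombinase or for green fluorescent protein (GFP). The 4 groups, with 4 libraries each, are GFP, Cre, and each of them with TGF-beta (GFP_TGFB and Cre_TGFB), a growth factor that turns fibroblasts into contractile myofibroblasts. Fresh medium followed the virus after 5 h, and stimulation lasted 48 h. The labels describe the Cre groups as knockouts of exon 2 of Has2, a hyaluronan synthase, made in Has2fl/fl cells, whereas the genotype field of every sample reads wild type C57BL/6J. The protocol names bFGF and TGF-beta at 20 ng/mL in 1 phrase, so whether cells without TGF-beta received bFGF is not stated. The age of the mice is not stated. All groups carry an adenovirus, and no Cre-treated cells without the floxed gene are among them, so an effect of the Cre virus and one of the Has2 deletion cannot be told apart. Replicate numbers 1 to 4 mark 4 cell preparations, each split over the 4 groups. Preparations 1 and 4 are labelled male and 2 and 3 female, and whether hearts were pooled is not stated.

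Hyaluronan is a long unsulphated sugar polymer made at the cell surface. Cells sense it and take it up through surface receptors, of which CD44 is the best known, and secreted hyaladherins tie it into a matrix: versican binds along the chain, link proteins lock such proteoglycans in place, and TSG-6 moves the heavy chains of inter-alpha-inhibitor onto hyaluronan, where PTX3 helps to crosslink them. In the heart this matrix is made largely by fibroblasts and grows after injury.

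Library totals ran from 17.9 to 48.7 M counts, with group medians of 24.0 (GFP), 36.6 (Cre), 22.5 (GFP_TGFB) and 27.2 M (Cre_TGFB). Levels are given as CPM, counts per M of the library total after TMM scaling. The targeted Has2 stood at 18.7 ± 3.27 CPM (SD, n = 4) in the GFP group, 14.7 ± 1.38 in Cre, 16.8 ± 5.67 in GFP_TGFB and 16.5 ± 6.32 in Cre_TGFB. Within preparations the Cre library was the lower one 4 times of 4 without TGF-beta and 2 times of 4 with it, and the whole-gene count does not show the state of exon 2. The 9 fibroblast markers summed to between 17900 and 41000 CPM in every library, with none at 0. The 16 macrophage markers summed to between 481 and 1980 CPM, highest in preparation 4 of each group, with none at 0 in any whole group and Cd163 at no more than 4 counts in any library. Markers of 10 endothelial genes summed to between 20.2 and 52.7 CPM. The 6 lymphatic markers summed to between 174 and 374 CPM. Of them, Pdpn, which fibroblasts also carry, had at least 2457 counts in every library and Flt4 at least 590. Prox1 and Reln had at most 39 and 24 counts in any library, and Ccl21a and Mmrn1 at most 5 and 3.

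Of the 10 genes, 9 passed the filter on low counts and were tested among 15285 genes with edgeR's quasi-likelihood test, at a Benjamini-Hochberg adjusted p under 0.05. Hapln1 was not. Each printed change is a log2 fold change ± SE. Where noted, the same test was repeated with the preparation as a block, so that libraries were compared within preparations.

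The 250 bases before the transcription start are shown for 4 genes that moved differently with TGF-beta: Ptx3, its partner Tnfaip6, Layn and Habp4. Ptx3 fell most, Layn fell evenly in every preparation, and Habp4 rose. Over all 16 libraries Tnfaip6 passed neither without nor with the block, though it passed in some alternatives given below. The sequences are RefSeq's, build GRCm38.p6, where 9 of the 10 genes had a match, and read 5′ to 3′ along the gene's strand. Capitals mark matches to TGANTCA (the AP-1 site) and CAGACA (a SMAD-binding sequence), searched on both strands together with TATAAA and the NF-kB consensus, and none of these overlapped.
Ptx3 (chr3:66219637-66219886, plus strand): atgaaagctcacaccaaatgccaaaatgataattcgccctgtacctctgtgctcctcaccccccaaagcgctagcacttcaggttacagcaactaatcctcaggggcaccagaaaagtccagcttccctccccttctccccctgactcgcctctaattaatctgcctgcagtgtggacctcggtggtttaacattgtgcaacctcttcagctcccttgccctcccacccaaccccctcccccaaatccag
Tnfaip6 (chr2:52037863-52038112, plus strand): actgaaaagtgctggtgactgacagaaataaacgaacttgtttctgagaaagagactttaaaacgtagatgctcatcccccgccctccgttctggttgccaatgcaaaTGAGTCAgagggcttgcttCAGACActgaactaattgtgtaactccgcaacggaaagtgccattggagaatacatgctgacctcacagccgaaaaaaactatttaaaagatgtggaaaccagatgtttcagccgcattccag
Layn (chr9:51077095-51077344, minus strand): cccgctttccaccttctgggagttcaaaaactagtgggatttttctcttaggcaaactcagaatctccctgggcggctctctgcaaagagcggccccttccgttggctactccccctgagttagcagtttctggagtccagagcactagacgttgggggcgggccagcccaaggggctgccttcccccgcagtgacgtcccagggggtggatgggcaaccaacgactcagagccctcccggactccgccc
Habp4 (chr13:64161616-64161865, plus strand): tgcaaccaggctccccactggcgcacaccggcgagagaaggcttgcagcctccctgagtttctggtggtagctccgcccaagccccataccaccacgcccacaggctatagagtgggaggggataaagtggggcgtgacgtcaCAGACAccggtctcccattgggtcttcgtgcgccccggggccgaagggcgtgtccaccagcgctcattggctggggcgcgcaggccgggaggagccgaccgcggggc

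In these windows Tnfaip6 held TGANTCA starting 142 bases and CAGACA starting 123 bases before the transcription start. Habp4 held CAGACA 107 bases before it. The windows of Ptx3, Layn, Cd44, Stab1, Vcan, Itih5 and Hapln1 held none of the 4 motifs. Over 32817 windows of the same length, TGANTCA was found in 6.75%, CAGACA in 17.1%, TATAAA in 12.4% and the NF-kB consensus in 3.9%. The GC content of the windows ran from 44.4% in Tnfaip6 to 68.0% in Habp4, with 54.0% in Ptx3 and 61.2% in Layn.

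Levels between genes were compared per kb of exon (GENCODE M21). In GFP cells Ptx3 was the highest of the 10, at 60.9 ± 7.2 CPM per kb (SD, n = 4), before Layn at 46.5 ± 5.0, Vcan at 34.4 ± 6.59 and Cd44 at 27.1 ± 7.03. Tnfaip6 followed at 11.5 ± 2.54, Stab1 at 9.01 ± 1.4 and Habp4 at 6.16 ± 0.516 CPM per kb. Vcan and Cd44 differed by less than their SDs together, as did Tnfaip6 and Stab1. Lyve1 at 0.328 ± 0.136, Itih5 at 0.126 ± 0.0499 and Hapln1 at 0.015 ± 0.0202 CPM per kb were far below the other 7. With TGF-beta the order changed: in GFP_TGFB cells Cd44 came first at 48.4 ± 5.33 CPM per kb, Layn stood at 20.7 ± 0.656, Vcan at 20.4 ± 7.9 and Tnfaip6 at 15.5 ± 4.44. Ptx3, the highest without TGF-beta, was now the sixth at 4.76 ± 1.54 CPM per kb, below Habp4 at 9.01 ± 0.677 and close to Stab1 at 4.03 ± 0.825. Layn and Vcan, Vcan and Tnfaip6, and Ptx3 and Stab1 differed by less than their SDs together. The order in Cre cells was the same as in GFP cells without TGF-beta, and likewise with it.

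**Figure D1:**
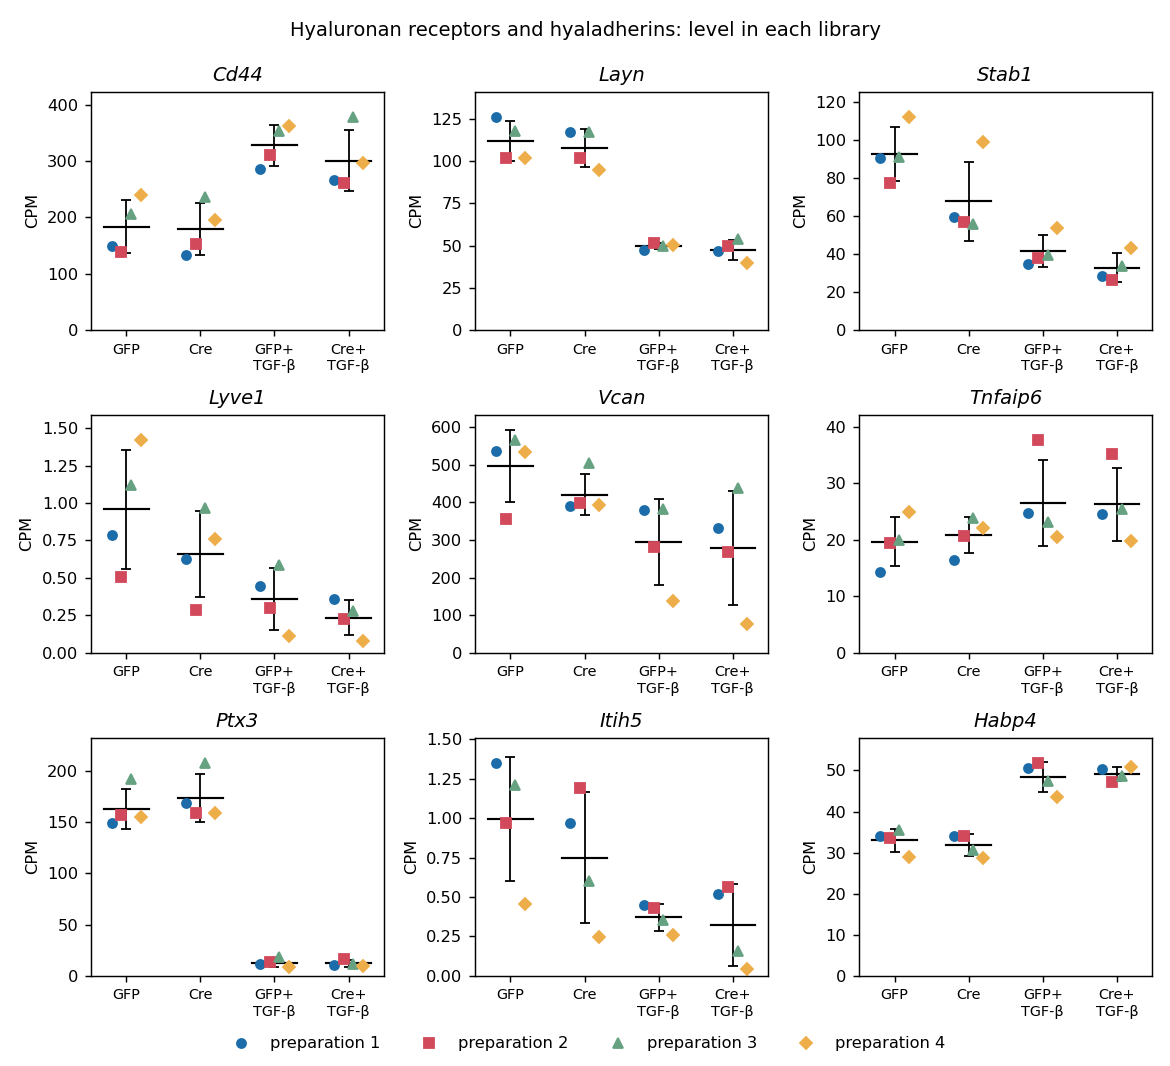
Level of the 9 tested genes in each of the 16 libraries, in CPM on a linear axis from 0, by group, with the colour and shape of a point giving its cell preparation, the bar the group mean and the whiskers 1 SD (n = 4). Ptx3 falls from 149 to 208 CPM without TGF-beta to 8.08 to 17.9 CPM with it, Cd44 and Habp4 lie higher with TGF-beta in every library, and in Vcan preparation 4 with TGF-beta lies apart at 138 and 76.2 CPM.

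TGF-beta moved 6 of the 9 tested genes in GFP cells, 2 up (Cd44 and Habp4) and 4 down (Ptx3, Layn, Stab1 and Lyve1), where 29.1% of all genes tested were called. In Cre cells the same 2 were up and the same 4 down, where 30.3% of all genes were called. The median change over the 9 genes was -1.16 in GFP cells and -1.05 in Cre cells, beside -0.02 and 0.02 over all genes tested. With the preparation as a block, 2 were up and 6 down in GFP cells, with Vcan and Itih5 added (49.1% of all genes called), and 2 up and 5 down in Cre cells, with Itih5 added (52.5%). Without preparation 4, whose libraries held the most macrophage marker RNA, 7 of 9 were called in GFP cells, where 39.9% of all genes were, and 6 of 9 in Cre cells, where 42.7% were. Without it and with the block, 8 of 9 were called in GFP cells (53.0% of all genes) and 9 of 9 in Cre cells (56.6%). The GFP and Cre comparisons use different libraries, and the difference between the responses is tested further on.

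**Figure D2:**
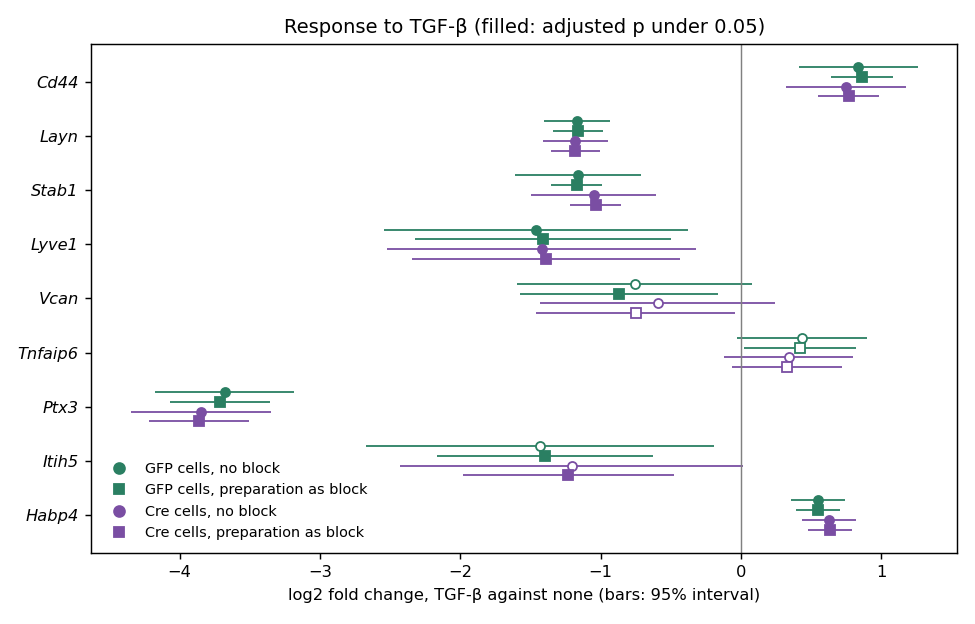
Log2 fold change with TGF-beta against none for the 9 tested genes (x axis), in GFP cells (green) and Cre cells (purple), without the block (circles) and with the preparation as a block (squares); bars are 95% intervals and filled symbols passed the adjusted p of 0.05. Ptx3 lies near -3.7 to -3.9 in all 4 fits, and the intervals of Cd44, Layn, Stab1, Lyve1, Ptx3 and Habp4 exclude 0 in each.

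Among the receptors, Cd44 (ENSMUSG00000005087, chromosome 2), the main cell-surface receptor of hyaluronan, rose with TGF-beta. In GFP cells of preparations 1 to 4 it stood at 150, 139, 206 and 240 CPM, and with TGF-beta at 286, 310, 353 and 363 CPM. In Cre cells it stood at 133, 152, 236 and 196 CPM, and with TGF-beta at 267, 261, 378 and 297 CPM. All 8 libraries with TGF-beta were above all 8 without it, and preparations 3 and 4 were the high ones without TGF-beta in both viruses. The change was 0.84 ± 0.20 in GFP cells (1.79-fold, adjusted p = 0.00544) and 0.75 ± 0.20 in Cre cells (1.68-fold, adjusted p = 0.0105), and the latter missed the threshold without preparation 1 (0.68, adjusted p = 0.0646). Within preparations it ran from 0.60 to 1.16 in GFP cells and from 0.60 to 1.00 in Cre cells, higher in 4 of 4 in each.

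Layn (ENSMUSG00000060594, chromosome 9) encodes layilin, a C-type lectin-like membrane receptor that binds hyaluronan and links to talin inside the cell, and it went the opposite way. Its levels in GFP cells were 126, 102, 118 and 102 CPM, and with TGF-beta 47.6, 51.4, 50.0 and 50.3 CPM. In Cre cells they were 117, 102, 117 and 94.8 CPM, and with TGF-beta 46.8, 49.8, 53.8 and 39.6 CPM. The groups with and without TGF-beta lay far apart, and the GFP_TGFB libraries differed among themselves by an SD of only 1.58 CPM. Layn fell by 1.17 (SE 0.11, 2.25-fold lower, adjusted p = 2.14e-06) in GFP cells and by 1.18 (SE 0.11, 2.27-fold lower, adjusted p = 1.8e-06) in Cre cells. Within preparations the change ran from -0.99 to -1.40 in GFP cells and from -1.03 to -1.32 in Cre cells.

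Stab1 (ENSMUSG00000042286, chromosome 14) encodes stabilin-1, a scavenger receptor known from tissue macrophages and sinusoidal endothelium. It stood at 90.3, 77.5, 90.9 and 112 CPM in GFP cells, and at 34.7, 37.7, 39.5 and 53.8 CPM with TGF-beta. In Cre cells it stood at 59.7, 56.9, 55.8 and 98.8 CPM, and with TGF-beta at 28.4, 26.2, 33.4 and 43.1 CPM. Preparation 4 was the highest of the 4 in every group, and within each virus the libraries with TGF-beta were all below those without. Stab1 fell with TGF-beta by 1.16 (SE 0.21, 2.24-fold lower, adjusted p = 0.000758) in GFP cells and by 1.05 (SE 0.21, 2.07-fold lower, adjusted p = 0.00158) in Cre cells. Of its exon bases 112, or 1.09%, are also exon of Nt5dc2 on the opposite strand, and the strand setting of the counting is not given in the sources used here.

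Lyve1 (ENSMUSG00000030787, chromosome 7), the hyaluronan receptor of lymphatic endothelium, also found on some tissue macrophages, was near the limit of detection. GFP libraries held 21, 14, 24 and 28 counts (0.957 ± 0.397 CPM, SD, n = 4), and with TGF-beta 8, 11, 10 and 3 counts (0.359 ± 0.204 CPM). Cre libraries held 24, 14, 21 and 31 counts (0.661 ± 0.285 CPM), and with TGF-beta 11, 6, 7 and 2 counts (0.235 ± 0.116 CPM). The groups overlapped in CPM, though each preparation was lower with TGF-beta in both viruses, most in preparation 4. The change was -1.46 ± 0.51 in GFP cells (adjusted p = 0.0417) and -1.42 ± 0.52 in Cre cells (adjusted p = 0.049), just inside the threshold. The GFP call was lost in 15 of 26 alternatives (adjusted p from 0.0132 to 0.155 over all 26), among them leaving out replicate 1, 3 or 4 of GFP, 1, 2 or 4 of GFP_TGFB, 1 of Cre, 2 or 3 of Cre_TGFB, or any preparation. The Cre call was lost in 17 of 26 (adjusted p from 0.0167 to 0.186), among them leaving out replicate 1, 3 or 4 of Cre, 2, 3 or 4 of Cre_TGFB, 1 or 3 of GFP, 1 or 2 of GFP_TGFB, or any preparation. With the block it was called in both (adjusted p = 0.0132 and 0.0167). The blocked call in GFP cells was lost without preparation 4 (-0.83, adjusted p = 0.0597), and that in Cre cells without preparation 3 (-1.23, adjusted p = 0.102).

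Summed macrophage and endothelial markers were also lower with TGF-beta. The 16 macrophage markers summed to between 856 and 1860 CPM in GFP, 763 and 1980 in Cre, 510 and 1150 in GFP_TGFB and 481 and 1240 in Cre_TGFB libraries, lower with TGF-beta in 4 of 4 preparations of each virus. In GFP cells 3 of the 15 tested were called lower and 0 higher, beside 29.1% of all genes called in either direction, and 14 of 15 lower with the block, beside 49.1%. In Cre cells 4 of 15 were called lower (30.3% of all genes), and 13 of 15 with the block (52.5%). The size of the change differed between the macrophage markers. Mrc1, a macrophage scavenger receptor, went from 38.9 to 4.0 CPM in GFP cells. Csf1r, the receptor that macrophages need to survive, went from 69.2 to 39.7 CPM, Lyz2 from 556 to 411 and Mertk from 26.9 to 25.3 CPM. The 10 endothelial markers went from between 39.2 and 52.7 CPM to between 20.5 and 31.1 CPM in GFP cells. In Cre cells they went from between 37.8 and 51.7 to between 20.2 and 24.6 CPM. Without the block 3 of 10 were called lower and 0 higher in each virus, beside 29.1% and 30.3% of all genes in either direction. With the block 6 of 10 were called lower in GFP cells and 7 of 10 in Cre cells, and 0 higher, beside 49.1% and 52.5%. Of the 4 lymphatic markers tested, 0 were called higher and 1 lower in GFP cells and 1 and 1 in Cre cells, with median changes of 0.01 and 0.26. Flt4, a receptor of lymphatic endothelium, went from 33.3 to 39.7 CPM in GFP cells, and Pdpn, which fibroblasts also carry, from 310.0 to 155.0 CPM. Of 9 fibroblast markers, 6 were called lower and 0 higher in each virus without the block. Their median changes were -1.43 in GFP and -1.35 in Cre cells, beside -0.89 and -0.87 for the macrophage markers. With the block 6 fibroblast markers were called lower and 2 higher in GFP cells, and 7 lower and 1 higher in Cre cells. Pdgfra, a receptor of resident fibroblasts, went from 952.0 to 148.0 CPM and Thy1, a fibroblast surface protein, from 905.0 to 219.0 CPM in GFP cells, while the collagen gene Col1a1 went from 9660 to 17400 CPM. The part of any of these cells in the fall of Stab1 and Lyve1 was not tested, and in bulk RNA fewer cells of a type and less RNA per cell cannot be told apart.

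Of the secreted proteins, Vcan (ENSMUSG00000021614, chromosome 13), the large proteoglycan that binds hyaluronan through its Link modules, had the most reads of the 10. In GFP cells it stood at 535, 356, 565 and 533 CPM, and with TGF-beta at 379, 280, 381 and 138 CPM. In Cre cells it stood at 390, 397, 503 and 392 CPM, and with TGF-beta at 332, 269, 438 and 76.2 CPM. Every preparation was lower with TGF-beta in both viruses, but the size differed: preparation 4 changed by -1.95 and -2.36 within itself, and the other 3 by between -0.20 and -0.57. The groups overlapped, and the change of -0.76 ± 0.39 in GFP cells did not pass (adjusted p = 0.167), nor did that of -0.59 ± 0.39 in Cre cells (adjusted p = 0.268). With the block Vcan was called lower in GFP cells (-0.87 ± 0.33, adjusted p = 0.0415), and not in Cre cells (adjusted p = 0.0706). The Cre change was called with the block once the trend on length and GC content was also removed (-0.80, adjusted p = 0.0128), and with the block without preparation 4 (-0.33, adjusted p = 0.0107). The blocked call in GFP cells was lost without preparation 1, 2 or 3 (adjusted p = 0.0766, 0.0751 and 0.0857) and held without preparation 4, where the change was smaller but steadier (-0.48, adjusted p = 0.000904). Without the block, leaving out the Cre_TGFB library of preparation 4 alone also brought the GFP change past the threshold (adjusted p = 0.039).

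Tnfaip6 (ENSMUSG00000053475, chromosome 2) encodes TSG-6, the enzyme that transfers heavy chains onto hyaluronan. In GFP cells it stood at 14.3, 19.4, 20.0 and 24.9 CPM, and with TGF-beta at 24.8, 37.6, 23.2 and 20.5 CPM. In Cre cells it stood at 16.4, 20.7, 23.9 and 22.1 CPM, and with TGF-beta at 24.6, 35.1, 25.5 and 19.8 CPM. The groups overlapped, and preparations 1 and 2 accounted for most of the difference: they changed by 0.79 and 0.95 in GFP cells and by 0.58 and 0.76 in Cre cells, preparation 3 by 0.22 and 0.10, and preparation 4 by -0.28 and -0.16. Neither change passed (0.44 ± 0.22, adjusted p = 0.149 in GFP cells; 0.34 ± 0.22, adjusted p = 0.249 in Cre cells). Without preparation 4 the one in GFP cells did (0.68, adjusted p = 0.0208), and with the block as well both did (0.67, adjusted p = 0.00107, and 0.50, adjusted p = 0.00648). The change in GFP cells also passed with the block and the length and GC trend removed (0.45, adjusted p = 0.0298).

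Ptx3 (ENSMUSG00000027832, chromosome 3) encodes the long pentraxin that binds TSG-6 and heavy chains in the hyaluronan matrix, and it changed most of the 10. In GFP cells it stood at 149, 157, 192 and 155 CPM, and with TGF-beta at 11.4, 13.7, 17.9 and 8.08 CPM. In Cre cells it stood at 169, 159, 208 and 159 CPM, and with TGF-beta at 10.7, 16.7, 11.5 and 9.18 CPM. The lowest library without TGF-beta was thus far above the highest with it, from 3065 to 7747 raw counts against 205 to 508. Ptx3 fell by 3.68 (SE 0.23, 12.8-fold lower, 95% interval 9.09 to 18.1, adjusted p = 6.87e-08) in GFP cells and by 3.85 (SE 0.23, 14.4-fold lower, 10.2 to 20.4, adjusted p = 4.09e-08) in Cre cells. Within preparations the change ran from -3.42 to -4.25 in GFP cells and from -3.25 to -4.17 in Cre cells. The promoter window printed above for Ptx3 held none of the motifs searched, and that for Tnfaip6 held TGANTCA and CAGACA. The part of these motifs in the response of either gene was not tested.

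Because PTX3 and TSG-6 act on the same heavy chain and hyaluronan complexes, their reads were also set against each other within each library. In GFP cells there were between 6.23 and 10.4 Ptx3 reads per Tnfaip6 read (median 8.84), and in Cre cells between 7.16 and 10.3 (median 8.22). With TGF-beta there were between 0.364 and 0.771 (median 0.427) in GFP cells and between 0.435 and 0.475 (median 0.457) in Cre cells. Every library without TGF-beta held more Ptx3 than Tnfaip6 reads and every library with it fewer, and the ratio needs no scaling between libraries.

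Itih5 (ENSMUSG00000025780, chromosome 2), of the inter-alpha-trypsin inhibitor heavy chain family, was near the limit of detection. GFP libraries held 36, 27, 26 and 9 counts (0.998 ± 0.394 CPM), and with TGF-beta 8, 16, 6 and 7 counts (0.371 ± 0.0873 CPM). Cre libraries held 37, 58, 13 and 10 counts (0.751 ± 0.417 CPM), and with TGF-beta 16, 15, 4 and 1 counts (0.321 ± 0.261 CPM). Each preparation was lower with TGF-beta in both viruses, and the groups did not overlap in GFP cells but did in Cre cells. The change of -1.43 ± 0.58 in GFP cells did not pass (adjusted p = 0.0788), nor did that of -1.21 ± 0.58 in Cre cells (adjusted p = 0.125). With the block both did (-1.40 ± 0.36, adjusted p = 0.00472, and -1.23 ± 0.35, adjusted p = 0.00847), and they stayed called without any 1 preparation (adjusted p from 0.00265 to 0.0435 and from 0.0114 to 0.042). Without the block the GFP call also appeared without the preparation 4 library of GFP or of Cre_TGFB or without all of preparation 4 (adjusted p = 0.0439, 0.0406 and 0.00984). That in Cre cells appeared without the Cre library of preparation 4 or all of it (adjusted p = 0.0486 and 0.0291).

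Hapln1 (ENSMUSG00000021613, chromosome 13), the link protein that holds proteoglycans on hyaluronan, had 27 counts in all 16 libraries and lies next to Vcan. GFP libraries held 0, 7, 0 and 2 counts, Cre libraries 3, 5, 1 and 6, GFP_TGFB libraries 1, 0, 0 and 0, and Cre_TGFB libraries 0, 1, 1 and 0. It was at 0 in 2, 0, 3 and 2 libraries of these groups, where 3 counts over a group would be 0.0314, 0.0201, 0.0301 and 0.0279 CPM. The sums of 9 and 15 counts without TGF-beta and 1 and 2 with it are given without a test.

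Habp4 (ENSMUSG00000021476, chromosome 13) encodes an intracellular protein that binds hyaluronan and RNA, and it rose by a small and even amount. In GFP cells it stood at 34.1, 33.5, 35.4 and 29.0 CPM, and with TGF-beta at 50.5, 51.8, 47.4 and 43.6 CPM. In Cre cells it stood at 34.0, 34.0, 30.7 and 28.6 CPM, and with TGF-beta at 50.4, 47.1, 48.6 and 50.8 CPM. All 8 libraries with TGF-beta were above all 8 without. The change was 0.55 ± 0.09 in GFP cells (1.46-fold, adjusted p = 0.000352) and 0.63 ± 0.09 in Cre cells (1.55-fold, adjusted p = 0.000106).

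For the Cre virus against the GFP virus, no tested gene of the 9 was called without the block: 0 of 9 passed without TGF-beta, 0 of 9 with it and 0 of 9 averaged over both media. The share of all genes called by edgeR was 0% in each of the 3. At an unadjusted p under 0.05 in this fit without the block, 169, 268 and 464 of all genes passed, and 1, 0 and 1 of the 9. With the block 882, 2039 and 2665 of all genes passed it, and 1, 1 and 1 of the 9. The member was Stab1 each time. DESeq2 called 3, 0 and 1 genes and 0 of the 9. The median change of the 9 was -0.06, -0.08 and -0.08, beside -0.01, -0.01 and 0.00 over all genes. With the preparation as a block, Stab1 alone of the 9 was called, lower in Cre cells, without TGF-beta (0.170% of all genes called) and averaged (0.785%), and 0 of 9 were called with TGF-beta (0.0654%).

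**Figure D3:**
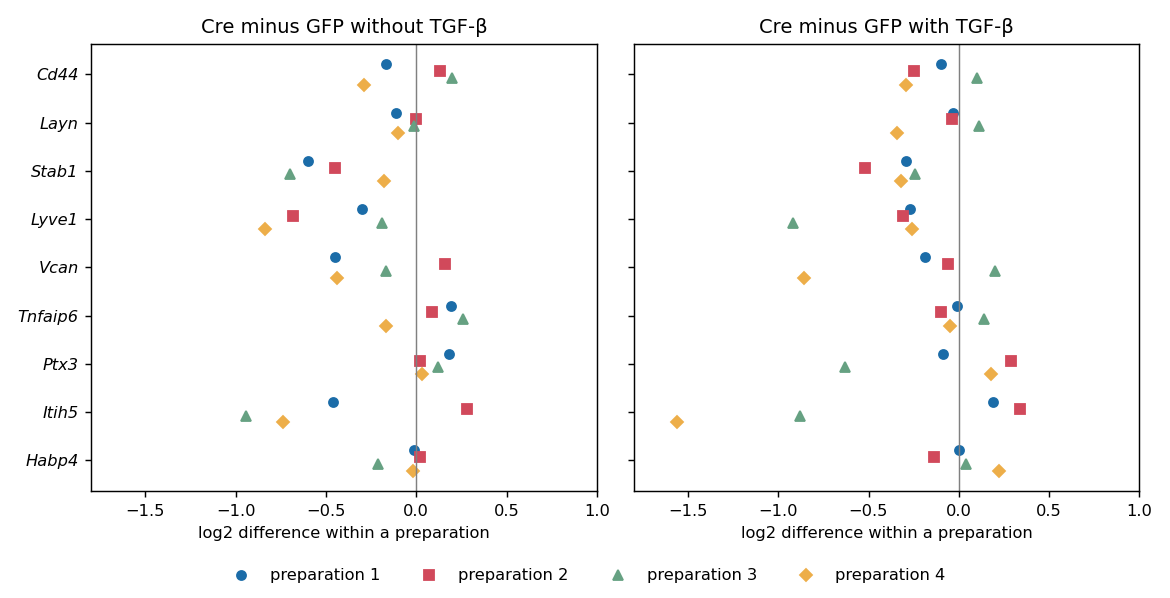
Cre minus GFP log2 difference of each tested gene within each of the 4 preparations (colour and shape), without TGF-beta on the left and with it on the right; 0 is the grey line. The points of Stab1 and Lyve1 lie below 0 in all 8 preparation and medium pairs, those of Stab1 between -0.70 and -0.18, while those of Cd44, Tnfaip6 and Habp4 lie on both sides.

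Stab1 was lower with the Cre virus in each of the 4 preparations and in both media, by -0.60, -0.45, -0.70 and -0.18 without TGF-beta and by -0.29, -0.52, -0.24 and -0.32 with it. Without the block the difference was -0.45 ± 0.21 without TGF-beta (95% interval -0.89 to -0.01, adjusted p = 0.9997), -0.34 ± 0.21 with it and -0.40 ± 0.15 averaged. With the block it was -0.48 ± 0.08 (adjusted p = 0.0414), -0.34 ± 0.09 (adjusted p = 0.14) and -0.41 ± 0.06 (adjusted p = 0.0155). The blocked calls rest on which preparations are in: leaving out preparation 1, 2 or 3 raised the adjusted p to 0.773, 0.421 and 0.779 without TGF-beta and to 0.144, 0.188 and 0.116 averaged, at log2 differences between -0.39 and -0.49. Without preparation 4 the values were -0.58 (adjusted p = 0.00135) and -0.46 (adjusted p = 0.000559), and the averaged one then also passed without the block (adjusted p = 0.0347).

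Other values moved with the Cre virus. Over 15259 genes the Cre difference fell with transcript length (Spearman rho -0.42 without TGF-beta and -0.31 with it in the blocked fit, a description across genes), and Stab1 has 10.3 kb of exon. With the trend on length and GC content taken out of each library, the blocked Stab1 difference was -0.36 without TGF-beta (adjusted p = 0.134) and -0.28 averaged (adjusted p = 0.0483). Summed macrophage markers were lower with the Cre virus in 2 of 4 preparations in plain medium and in 3 of 4 with TGF-beta, and 0 of 15 were called in either fit. Summed endothelial markers were lower in 4 of 4 and 2 of 4 preparations, by small amounts (50.7 to 45.1, 39.4 to 38.9, 52.7 to 51.7 and 39.2 to 37.8 CPM without TGF-beta), and 0 of 10 were called. Their part in the Stab1 difference was not tested.

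None of the other 8 tested genes was called for the Cre virus, without or with the block. Lyve1 was lower in 4 of 4 preparations in both media, at -0.55 ± 0.46 and -0.51 ± 0.56, on 2 to 31 counts a library. Without the block and averaged over both media, Habp4 differed by -0.01 (95% interval -0.15 to 0.12), Layn by -0.06 (-0.23 to 0.10) and Cd44 by -0.08 (-0.38 to 0.22). Ptx3 differed by 0.00 (-0.32 to 0.32) and Tnfaip6 by 0.03 (-0.29 to 0.36). Vcan at -0.16 (-0.75 to 0.43) and Itih5 at -0.29 (-1.17 to 0.59) had wider intervals. In this fit without the block, the intervals leave room for a change of Cd44 between 1.30-fold lower and 1.16-fold higher. For Vcan they leave room between 1.68-fold lower and 1.35-fold higher. With the preparation as a block the intervals were narrower, at -0.24 to 0.07 for Cd44 and -0.69 to 0.30 for Vcan.

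The response to TGF-beta was then compared between Cre and GFP cells, as the difference of the 2 responses. With edgeR 0 of 9 genes and 0% of all genes were called, without or with the block (0%), and DESeq2 called 0 genes. At an unadjusted p under 0.05, 90 genes passed without the block and 501 with it, 0 of the 9 in either. The difference was -0.17 ± 0.30 for Ptx3 (95% interval -0.81 to 0.46), -0.09 ± 0.28 for Cd44 (-0.69 to 0.51), -0.01 ± 0.15 for Layn (-0.34 to 0.31), 0.11 ± 0.29 for Stab1 (-0.51 to 0.74) and 0.08 ± 0.13 for Habp4 (-0.19 to 0.35). For Vcan (-1.02 to 1.34), Lyve1 (-1.70 to 1.78) and Itih5 (-1.54 to 1.99) the intervals were wide. All of these intervals are from the fit without the block. With it they were -0.40 to 0.21 for Cd44, -0.86 to 1.10 for Vcan and -1.695 to 1.739 for Lyve1. A p that misses the threshold does not show that the responses are alike.

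**Figure D4:**
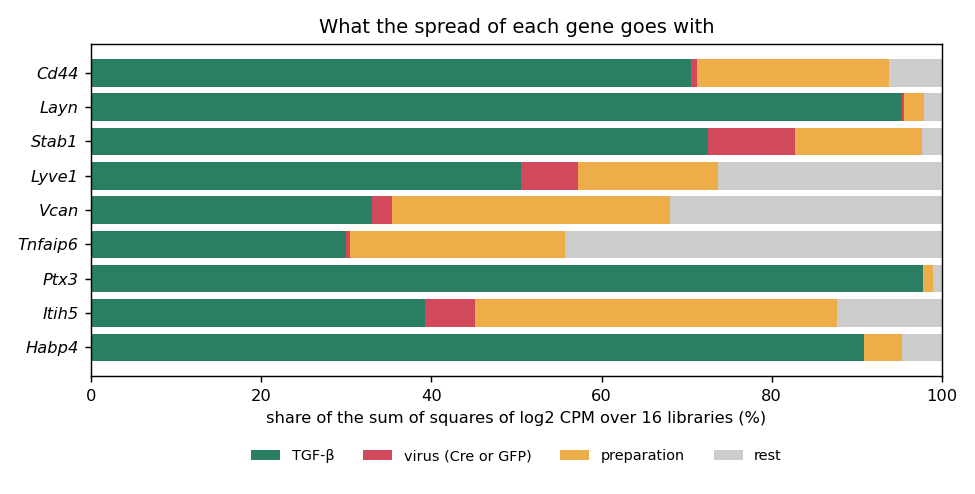
Share of the sum of squares of log2 CPM over the 16 libraries that goes with TGF-beta, with the virus, with the preparation and with the rest, for each tested gene, in percent. TGF-beta takes 97.8% in Ptx3, 95.3% in Layn and 90.8% in Habp4, the virus at most 10.2%, in Stab1, and the preparation 42.6% in Itih5.

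The share of each gene's spread that went with each factor set the genes apart. TGF-beta took 97.8% of the sum of squares of log2 CPM in Ptx3, 95.3% in Layn and 90.8% in Habp4, 72.5% in Stab1 and 70.5% in Cd44. The preparation took 22.5% in Cd44, 32.6% in Vcan, 25.3% in Tnfaip6 and 42.6% in Itih5. The virus took 10.2% in Stab1, 6.75% in Lyve1 and 5.91% in Itih5, and no more than 2.4% in the other 6. In Vcan and Tnfaip6 the rest, which holds the unequal response of the preparations, took 32.0% and 44.3%, where TGF-beta took 33.0% and 30.0%.

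Each gene was also set beside all others by the correlation of log2 CPM over the 16 libraries, a description in which every pair shares the libraries and their groups. Ptx3 was nearest to Aqp1 (Pearson r 0.994), Nsg1 (0.993) and Cd34 (0.99), Layn to Eps8 (0.994), Wipf1 and Nedd4l (both 0.991), and Cd44 to Dock5 (0.98), Pvr (0.978) and Heatr1 (0.976). Habp4 was nearest to Ak5 (0.977), Pdia5 (0.973) and Hbs1l (0.968), and Stab1 to Rassf2 (0.951), Nxpe5 (0.944) and Abcc3 (0.943). Vcan was nearest to Fam102b (0.983), Pkd2 (0.982) and Pcdh9 (0.974), and Fam102b was again its nearest gene (0.989) once group and preparation means were removed. For Tnfaip6 the nearest gene reached 0.897 (Akirin2), for Lyve1 0.921 (Slit2) and for Itih5 0.947 (Snx29). Of the 9 genes among themselves, Ptx3 and Habp4 had the most negative r, -0.939.

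Other genes of the same pathway were called for TGF-beta in both directions. Their counts without the block stand beside 29.1% of all genes called in GFP and 30.3% in Cre cells. Of 22 other hyaluronan receptors and binding proteins, 11 were tested, with 2 called higher and 2 lower in GFP cells and 2 and 3 in Cre cells. C1qbp, which binds hyaluronan and C1q, rose by 0.97 ± 0.16 in GFP cells (adjusted p = 0.000409), and Cemip2, a hyaluronan-degrading membrane protein, fell by 0.98 (SE 0.21, adjusted p = 0.0027), as did Itih2 by 0.55 (SE 0.15, adjusted p = 0.00951). Of 17 genes of hyaluronan synthesis and turnover, 14 were tested, with 1 higher and 3 lower in each virus. Hexa, a lysosomal hexosaminidase, fell by 0.76 (SE 0.12, adjusted p = 0.000243) and Gfpt2, of the hexosamine pathway, by 0.88 (SE 0.15, adjusted p = 0.000329), while Pgm3 of the same pathway rose by 0.56 ± 0.14 (adjusted p = 0.00797). Has2 changed by -0.16 ± 0.26 in GFP cells (adjusted p = 0.703) and 0.16 ± 0.26 in Cre cells (adjusted p = 0.669).

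Around CD44, 11 of 12 linkers, sheddases and ligands were tested, with 1 higher and 3 lower in GFP cells and 1 and 4 in Cre cells. Msn, the moesin that ties CD44 to actin, rose by 1.00 ± 0.16 in GFP cells (adjusted p = 0.000326). Hgf, a growth factor whose receptor works with CD44, fell by 1.95 (SE 0.26, adjusted p = 5.2e-05), and Adam17, a CD44 sheddase, by 0.66 (SE 0.17, adjusted p = 0.00773). Of 12 versican-cleaving proteases and versican-binding matrix genes, 10 were tested, with 1 higher and 5 lower in each virus. Tnc, the tenascin that binds versican, rose by 3.78 ± 0.44 in GFP cells (adjusted p = 1.6e-05), while Fbln1 fell by 2.62 (SE 0.39, adjusted p = 0.000139) and the protease Adamts15 by 3.18 (SE 0.65, adjusted p = 0.0019). The median change in GFP cells was -0.55, -0.16, -0.11 and -0.77 in these 4 lists, beside -0.02 over all genes. With the block, the 4 lists in this order had 2, 3, 2 and 1 genes called higher and 6, 6, 4 and 5 lower in GFP cells (49.1% of all genes called). In Cre cells they had 2, 3, 2 and 1 higher and 4, 6, 4 and 5 lower (52.5%). In the Cre comparisons 0 members of the 4 lists were called, without or with the block.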

How the data were processed

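The deposited values are whole, unnormalized read counts for each gene in 16 libraries. Trizol extraction, DNase and NEBNext Ultra II library preparation were used, per the labels' protocols. FastQC 0.10.1, HTSeq 0.10.0 and the build mm39 are named in the submitters' processing notes, with no aligner, annotation or strand setting. Symbols and exon lengths came from GENCODE M21 (GRCm38), which matched 52081 of 55414 identifiers, holding 99.9% of the counts.

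Genes were kept with filterByExpr (minimum count 10, minimum total 15), scaled by TMM (factors 0.908 to 1.12) and tested with edgeR 4.0.16 (limma 3.58.1, R 4.3.3): the quasi-likelihood F test, robust, 1 mean per group over all 16 libraries, with Benjamini-Hochberg adjustment over 15285 genes. SE was taken from the change and its F statistic (change over root F). Intervals are 95%. Alternatives were the replicate block, DESeq2 1.42.0, RLE factors, no filter, a stricter filter (5 CPM in at least 4 libraries), a fit on the compared libraries alone, the block with trends on transcript length and GC removed, and leaving out each library or preparation. The fit was tested on simulated data.

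Replicate numbers pair the libraries, since their names share a preparation code: after subtracting group means, the 24 pairs with the same number had an r between 0.323 and 0.838, and the 72 others at most 0.292. Whether preparations are separate animals is not stated, so p-values apply to these 4 only. Without the block they measure the spread between preparations within groups. With the block they measure the spread left once differences between preparations are removed. No library pair of a group agreed within sampling noise (6.59 to 214 chi-square units a gene).

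All 10 genes are named whatever their result, with Has2 and up to 3 genes of each of the 4 pathway lists by smallest p. Likeness is Pearson's r of log2 CPM (prior count 2) over 16 libraries, among genes with a mean of at least 2 CPM and an established symbol. The member genes and the lists were chosen with earlier results of these data known.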

Additional observations from a re-analysis of the deposited data

Results flagged for a closer look

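Within-group spread was examined for the 9 tested genes in the 4 groups, 36 sets of 4 libraries, and 3 held a library that lay apart from the other 3 by more than Dixon's 95% limit. Chance alone flags about 1 in 20 such sets. Stab1 in Cre cells stood at 98.8 CPM in replicate 4, where the other 3 Cre libraries lay between 55.8 and 59.7 CPM. Vcan in GFP cells stood at 356 CPM in replicate 2, below the others at 533 to 565 CPM. Vcan in Cre cells stood at 503 CPM in replicate 3, above the others at 390 to 397 CPM.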

How the results depend on the processing

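With the replicate block the genes called rose from 0 to 26 (Cre without TGF-beta), 10 (with TGF-beta) and 120 (averaged), and from 4445 to 7498 and from 4629 to 8030 for TGF-beta in GFP and Cre cells; with the length and GC trend also removed they were 28, 40, 101, 8653 and 8806. Members called for Cre rose from 0 to 1 with the block without TGF-beta and averaged, and were 1 averaged with the trend removed. The block changed the call of Stab1 (Cre), Vcan (TGF-beta, GFP cells) and Itih5 (TGF-beta, both viruses), and no other member's. DESeq2 called 3 genes for Cre without TGF-beta and 1 averaged. Leaving out 1 library or preparation gave 0 to 17 genes for Cre without TGF-beta and 0 to 25 averaged (the highest without preparation 4), 0 to 1 member averaged, and 2239 to 6055 and 2317 to 6479 genes for TGF-beta in GFP and Cre cells. The blocked counts for Cre rest on the preparations in the fit. Without 1 of them they ran from 0 to 114, 0 to 232 and 0 to 217 genes, again highest without preparation 4. Members called then ran from 0 to 1 without TGF-beta and averaged. The cause was not tested.

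No called TGF-beta change reversed under any alternative. The uncalled changes that changed sign lay between -0.18 and 0.22 in the fit of all 16 libraries without the block, and some were larger in the alternatives. With the block and the trend removed these were, without TGF-beta, Cd44 0.038 and Habp4 0.02 for Cre; averaged, Tnfaip6 -0.135, Ptx3 -0.007 and Habp4 0.086; and for the difference of responses, Layn 0.002 and Vcan -0.118. Tnfaip6 with TGF-beta was 0.0 for Cre with the stricter filter and 0.004 with only the libraries compared, and the Layn difference of responses was 0.001 with the stricter filter. Leaving out 1 library or preparation moved the Cre change without TGF-beta from -0.195 to 0.121 (Cd44), -0.10 to 0.006 (Layn), -0.045 to 0.216 (Tnfaip6), -0.01 to 0.178 (Ptx3) and -0.11 to 0.002 (Habp4). With TGF-beta it ran from -0.139 to 0.022 (Layn), -0.382 to 0.235 (Vcan), -0.188 to 0.203 (Tnfaip6), -0.282 to 0.132 (Ptx3), -0.566 to 0.172 (Itih5) and -0.027 to 0.073 (Habp4). Averaged, it ran from -0.177 to 0.007 (Cd44), -0.054 to 0.141 (Tnfaip6), -0.096 to 0.107 (Ptx3) and -0.046 to 0.019 (Habp4). The difference of responses ran from -0.23 to 0.072 (Cd44), -0.078 to 0.067 (Layn), -0.047 to 0.367 (Stab1), -0.278 to 0.391 (Lyve1), -0.141 to 0.477 (Vcan), -0.268 to 0.124 (Tnfaip6), -0.373 to 0.05 (Ptx3) and -0.164 to 0.574 (Itih5). The stricter filter leaves Lyve1 and Itih5 without a value. These 2 rest on 1 to 58 counts a library, and Hapln1 on 0 to 7.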
